A study of Mus musculus with 4 samples.

Results

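The mitochondrial ribosomal protein genes encode the protein part of the mitoribosome, the ribosome inside mitochondria. They were chosen by name: autosomal protein-coding genes of the GENCODE M21 annotation whose symbol is Mrpl (large subunit) or Mrps (small subunit) followed by a number and at most 1 letter. The rule gave 77 genes, 48 Mrpl and 29 Mrps, of 20807 autosomal protein-coding genes. For each gene the position of CTCF peaks around the gene start was read from peak lists of mouse gastrocnemius, the large calf muscle. CTCF was measured by ChIP-seq, the sequencing of DNA pulled down with an antibody, here against CTCF, in 4 libraries from adult female B6CASTF1/J mice, an F1 hybrid, at 2 months. The libraries form 2 groups that share strain, sex, age and tissue and differ in the tissue samples pooled. Pool E and pool F each hold tissue of 2 samples, with 2 technical replicates, and both used the same control. The tissue had been frozen, and fragments of 200 to 600 bp were kept. There is no treatment, genotype contrast or time course, and peak lists hold no expression values, so the tissue could not be checked against muscle markers. Whole muscle also holds cell types other than muscle fibres, and their part in a peak was not tested. Reads were placed on mm10, so the parental alleles were not told apart.

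Mitochondria translate the few proteins of their own genome, which are core subunits of the respiratory chain and ATP synthase, on ribosomes of their own. The ribosomal RNA comes from the mitochondrial genome, but every mitoribosomal protein is encoded in the nucleus, made in the cytosol and imported. Skeletal muscle has a high demand for respiration, and inherited defects in several of these genes cause combined respiratory chain deficiency. CTCF, a protein with many zinc fingers, recognises a long DNA motif that has a direction. It anchors many chromosome loops together with cohesin and also binds at a share of promoters.

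The sites below are shown because they lie under the 6 strongest motif-bearing summits within 1000 bp of a member start. Each is 30 bases of GRCm38 (the same coordinates as mm10) read on the strand of the motif, 5′ to 3′, and the capitals mark the 14 bases that match the CTCF consensus with at most 2 mismatches.
Mrps16, chr14:20393558-20393587, minus strand: cccgccggCCGCTTGGGGGCGCtcttccgg
Mrpl17, chr7:105811247-105811276, minus strand: agagaaacCCGGCAGGGGGCGCcgagatcc
Mrpl34, chr8:71464779-71464808, minus strand: caaaatgaCCAGGAGAGGGCGAacgaatgt
Mrps2, chr2:28467998-28468027, plus strand: cctccgggCCAGCAAGCGGCGCtgcgaccc
Mrpl38, chr11:116139035-116139064, plus strand: gagagctgCCACTAGGAGGCAGcacaaagg
Mrpl11, chr19:4962001-4962030, plus strand: cactgtgtCCAGCAGATGGCAAcccagaac

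A second set of sites was alike from gene to gene. Of the 30 motif-bearing summits within 5000 bp of a start, 9 had a site beginning with the same 11 bases, CCAGAAGAGGG, while every other beginning was found once. All 9 are shown to let the shared stretch and its flanks be compared.
Mrpl12, chr11:120489444-120489473, plus strand: gtaagagaCCAGAAGAGGGCAGtgttgcct
Mrpl16, chr19:11768336-11768365, minus strand: cacactggCCAGAAGAGGGAGCtgtagttg
Mrpl52, chr14:54423541-54423570, plus strand: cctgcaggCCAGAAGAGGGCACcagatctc
Mrpl4, chr9:20998535-20998564, minus strand: cttgcaagCCAGAAGAGGGCACcagatctc
Mrpl45, chr11:97314268-97314297, plus strand: ctcaaagtCCAGAAGAGGGCATcagatccc
Mrpl2, chr17:46643837-46643866, plus strand: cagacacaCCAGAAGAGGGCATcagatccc
Mrpl10, chr11:97046079-97046108, minus strand: cctgcataCCAGAAGAGGGCGCcaagatga
Mrpl33, chr5:31599356-31599385, plus strand: cttggaggCCAGAAGAGGGAGCtggagcct
Mrpl20, chr4:155802793-155802822, plus strand: catactctCCAGAAGAGGGCGTcagatcta

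The last set shows whole promoter stretches. These are the members whose summit and site both fall in the 250 bases before the RefSeq start (GRCm38.p6) with no annotated exon in that stretch. Each is given on the plus strand, which is the gene's strand for all of them, with the motif in capitals.
Mrps2, chr2:28467816-28468065: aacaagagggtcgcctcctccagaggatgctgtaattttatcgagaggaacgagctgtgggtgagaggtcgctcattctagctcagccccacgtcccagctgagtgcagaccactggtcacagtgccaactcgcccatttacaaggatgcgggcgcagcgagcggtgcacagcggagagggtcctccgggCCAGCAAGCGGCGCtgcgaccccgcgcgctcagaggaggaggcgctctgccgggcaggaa
Mrpl34, chr8:71464676-71464925: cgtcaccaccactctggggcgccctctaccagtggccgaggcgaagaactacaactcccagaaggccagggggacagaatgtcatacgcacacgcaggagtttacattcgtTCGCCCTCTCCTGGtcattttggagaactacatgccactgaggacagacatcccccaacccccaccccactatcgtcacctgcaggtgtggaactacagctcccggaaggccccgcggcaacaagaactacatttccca
Mrpl20, chr4:155802628-155802877: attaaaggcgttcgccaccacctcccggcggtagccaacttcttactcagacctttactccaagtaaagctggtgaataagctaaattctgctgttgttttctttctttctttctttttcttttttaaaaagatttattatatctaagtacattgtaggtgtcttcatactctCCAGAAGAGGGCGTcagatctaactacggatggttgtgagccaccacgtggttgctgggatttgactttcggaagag

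The main list, which the depositors call conservative, rests on both pools and held 42163 peaks. Its peaks passed an irreproducible discovery rate (IDR) of 0.05; the IDR is low for peaks that rank alike in both inputs of a list. Strength means the authors' score of a peak, on an unstated scale that serves to rank peaks within a list (median 245.6, highest 684). There were 50899 peaks in the list of pool E, 33784 in that of pool F and 49649 in the combined one. Technical replicates were merged in each list and depth was unknown: values carry no replicate spread, and no test was made. Shares carry 95% Wilson intervals, which cover counting error over genes or peaks and leave out differences between animals. They treat genes as independent, although neighbouring genes can have the same peak. Whether an interval holds a share of all genes is therefore given as a description and not as a test.

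Of the 77 genes, 20 had a CTCF summit 1000 bp or less from the start (26.0%, 17.5 to 36.7), against 21.1% of all autosomal protein-coding genes. Within 5000 bp it was 38 genes (49.4%, 38.5 to 60.3), against 38.2% of all. The interval holds the share of all genes at 1000 bp and lies just above it at 5000 bp. The median distance from a start to the nearest summit was 5447 bp (95% interval of the median 3157 to 8439; quartiles 675 and 12725), and that of all genes was 9389 bp. The distances ran from 20 bp at Mrps28, a small-subunit protein gene, to 63979 bp at Mrps9. In the curve of shares against distance, the genes stood above all coding genes at both windows and below the cytosolic ribosomal protein genes.

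**Figure D1:**
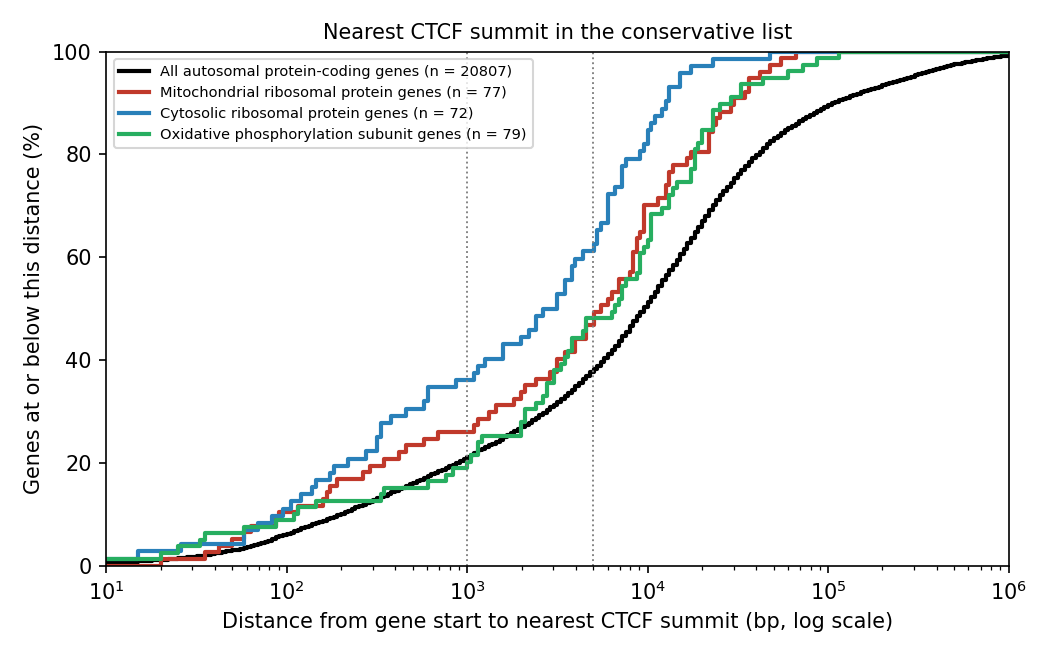
Share of genes (vertical axis, %) whose nearest conservative-list summit lies at or below the distance on the horizontal axis (bp, log scale), for 77 mitochondrial ribosomal protein genes, 72 cytosolic ribosomal protein genes, 79 oxidative phosphorylation subunit genes and 20807 autosomal coding genes; dotted lines mark 1000 and 5000 bp. At 5000 bp the mitochondrial ribosomal protein genes stand at 49.4% and all coding genes at 38.2%.

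The genes differ from the average gene in the sequence at their starts. The 300-base window from 250 bases before to 50 after the start held a median of 18 CpG dinucleotides, against 12 for all genes. At starts with 10 or more CpG, 19 of 70 members had a summit within 1000 bp (27.1%, 18.1 to 38.5), against 31.4% of all such genes. Within 5000 bp it was 37 of 70 (52.9%, 41.3 to 64.1), against 49.9%. Among CpG-rich starts the members' share was thus below that of all genes at 1000 bp and above it at 5000 bp, and the intervals held the share of all genes at both windows.

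By role, the large-subunit symbols had a summit within 1000 bp at 11 of 48 genes (22.9%) and the small-subunit symbols at 9 of 29 (31.0%). Within 5000 bp the order was the other way, with 26 of 48 (54.2%) and 12 of 29 (41.4%). The difference between subunits was not tested. The proteins of Mrps18a and Mrps30 sit in the large subunit despite their symbols. Both genes had their nearest summit beyond 5000 bp, and counting them there gave 11 of 50 and 9 of 27 within 1000 bp.

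Among the small-subunit genes, Mrps16 had the strongest peak of the family. Its summit lay 62 bp inside the gene, in the untranslated part of an exon, with a strength of 643.9, rank 54 of the list. Mrps2 had a summit 57 bp upstream with a strength of 561.2, beside a site on the strand of the gene, and a further summit 3946 bp upstream without a motif (419.8). Human defects in both genes are known to impair mitochondrial translation. Mrps14 followed with a motif-bearing summit 254 bp upstream (455.9) and Mrps18b, 1 of several related S18 proteins, with one 49 bp downstream in its coding sequence (355.0). Mrps23 had a summit 574 bp upstream without a motif (295.5) and a motif-bearing one 2379 bp downstream (193.2). Mrps26 had a pair of summits without a motif, 351 bp upstream (216.3) and 90 bp downstream (129.2). Mrps28 had one 20 bp upstream (175.7) and Mrps6 one 42 bp downstream (74.0), neither with a motif. The coding gene Gm49711 started nearer to the Mrps6 summit (4 bp).

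Mrps12, a protein of the decoding centre, had the strongest promoter peak without a motif, at 438 bp upstream with a strength of 566.4. The summit falls in coding sequence of Sars2, the mitochondrial seryl-tRNA synthetase gene, which starts 172 bp away on the other strand and is nearer to the summit (266 bp). The best site in reach of the summit had 3 mismatches. It is shown for comparison with the sites above.
Mrps12, chr7:28742235-28742264, plus strand: ctggagctCCGCAAGGGGGAGCtgcggccg

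Among the large-subunit genes, Mrpl17 and Mrpl34 had nearly the same peak: summits 165 and 167 bp upstream with strengths of 618.0 and 606.8. Mrpl38, a protein found in mitochondrial ribosomes and not in bacterial ones, had a summit 183 bp upstream (483.1). Mrpl11, of the stalk base that binds translation factors, had one 115 bp upstream (481.6). Mrpl39 had a pair, 402 bp downstream (432.0) and 282 bp upstream (205.0), both with a motif. Mrpl33 had the most summits within 5000 bp, 342 bp upstream (232.5) and 1846 and 2429 bp downstream (223.8 and 101.4), each with a motif.

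The other large-subunit promoter peaks were weak. Mrpl20 had a summit 84 bp upstream (83.7), Mrpl51 one 157 bp upstream (74.0), Mrpl57 one 401 bp downstream (72.5), Mrpl48 one 675 bp downstream (50.3) and Mrpl3 one 34 bp upstream (45.5). Among these the Mrpl20 summit alone had a motif. Strengths at promoters therefore ran from 45.5 to 643.9. Another coding gene started nearer to the Mrpl51 summit (Ncapd2, 57 bp) and to the Mrpl48 summit (Rab6a, 216 bp). The genes just inside 1000 bp were Mrps23 at 574 bp and Mrpl48 at 675 bp, and those just outside were Mrpl40 at 1088 bp and Mrpl30 at 1122 bp.

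**Figure D2:**
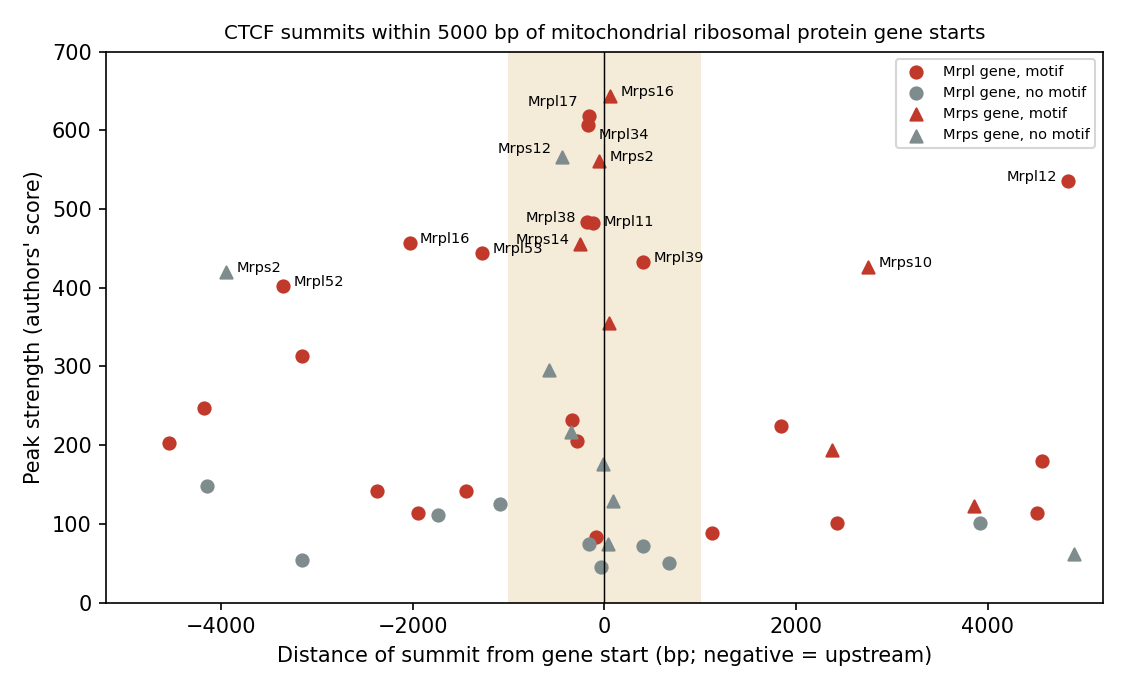
Strength (authors' score, vertical axis) of each of the 47 conservative-list summits within 5000 bp of a member start against its distance from that start (horizontal axis, bp, negative upstream); circles are Mrpl and triangles Mrps genes, red marks a motif and grey none, the shaded band is 1000 bp to each side, and names mark strengths of 400 or more. The 3 summits above 600, at Mrps16, Mrpl17 and Mrpl34, all lie within 167 bp of a start.

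Another 18 genes had their nearest summit 1000 to 5000 bp away. The strongest of these was at Mrpl12, a stalk protein, 4839 bp downstream of its start with a strength of 535.7, although Slc25a10 starts nearer to it (2388 bp). Mrpl16 (456.3) and Mrpl53 (444.0) had summits 2034 and 1278 bp upstream. Mrps10 had one 2756 bp downstream in its own intron (426.8), with a site that matched the consensus with no mismatch. The other exact match belonged to Mrpl28, 3160 bp upstream in coding sequence of Tmem8 (313.0). Mrpl52 had summits 3357 bp upstream (402.2) and 4566 bp downstream (179.4), the latter 137 bp from the start of Mmp14.

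The remaining genes of this distance class had strengths of 247.0 or less. Mrpl4, at the peptide exit tunnel, had summits 1742 bp (111.5, no motif) and 4182 bp upstream (247.0). Mrpl45, which holds the ribosome at the inner membrane, had summits 1444 bp (142.1) and 4150 bp upstream (148.1, no motif). Motif-bearing single summits lay near Mrpl14 (202.2), Mrpl2 (141.6), Mrps5 (123.3), Mrpl10 (114.1), Mrpl9 (113.7) and Mrpl30 (89.0). Single summits without a motif lay near Mrpl40 (125.6), Mrpl43 (101.4), Mrps17 (62.2) and Mrpl22 (53.6). Another coding gene started nearer to each of them: Hira (913 bp), Twnk (3141 bp), Nipsnap2 (4666 bp) and Gemin5 (35 bp), in that order. Klc4 started nearer to the Mrpl2 summit (2172 bp). The last 2 genes inside 5000 bp were Mrpl12 at 4839 bp and Mrps17 at 4900 bp, and the next outside were Mrpl15 at 5447 bp and Mrpl32 at 5803 bp.

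For the other 39 genes the nearest summit lay beyond 5000 bp. It was within 20000 bp for 24 and at 20000 to 50000 bp for 13, among them Mrps33, which is described below. The farthest 5 were Mrps9 (63979 bp), Mrpl37 (54511 bp), Mrpl50 (46720 bp), Mrps36 (40913 bp) and Mrpl18 (35968 bp). Of these, 3 had a summit within 1000 bp in another thresholded list: Mrpl37 at 495 bp in the pool E and combined lists, Mrpl50 at 612 bp in the pool E list and Mrps36 at 126 bp in the combined list. The Mrps36 protein is now assigned to the oxoglutarate dehydrogenase complex rather than to the mitoribosome. Beyond 50000 bp stood 2 members (2.60%) and 16.9% of all coding genes, and CpG-rich starts were not compared apart here. The largest distance was 46416 bp in cytosolic ribosomal protein genes and 113876 bp in oxidative phosphorylation subunit genes.

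Summits lay upstream of the start more often than downstream, 15 of 22 within 1000 bp (68.2%, 47.3 to 83.6) and 29 of 47 within 5000 bp (61.7%, 47.4 to 74.2). Around all coding starts the upstream share was 54.0% and 52.5%, inside both intervals. The side was read from the member for member summits and from the nearest coding start around all starts. These measures differ where another gene starts nearer than the member. The member was the nearest coding start for 18 of the 22 and 35 of the 47 summits. No conservative-list summit within 5000 bp was shared by 2 members, although Mrps11 and Mrpl46 start 412 bp apart. In the pool E list the same summit lay 57 bp from Mrps11 and 355 bp from Mrpl46, and it counts for both. Of the 47 summits 18 lay between genes, 14 in introns, 9 in untranslated exon sequence and 6 in coding sequence.

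The members are compact genes, with a median length of 7894 bp against 17629 bp for all genes, and 25 of 77 (32.5%) had a summit inside the gene, against 46.7% of all. The summits on either side of a start were a median of 27822 bp apart, against 54165 bp for all genes. The cytosolic ribosomal protein genes shared these traits (median length 3328.5 bp, summit inside 23.6%, flanking summits 22710 bp apart). So did the oxidative phosphorylation subunit genes (7456 bp, 30.4% and 32117 bp). Another protein-coding gene started on the opposite strand within 1000 bp, to either side, for 33 of 77 members (42.9%), against 11.2% of all genes. A summit lay within 1000 bp of 5 of these 33 starts (15.2%, 6.65 to 30.9) and of 15 of the other 44 (34.1%, 21.9 to 48.9). For all genes the shares were 29.9% with such a start and 20.0% without. The intervals of the members overlap, and the difference was not tested. For 18 members (23.4%; 6.97% of all genes) the other start lay upstream, so that the genes ran apart. Of these members, 4 had a summit within 1000 bp (22.2%), against 427 of 1450 (29.4%) of all genes with such an upstream start. The Wilson interval of these members holds that share.

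Promoter windows of members were also searched on both strands for exact motifs of factors known to act at genes for mitochondrial proteins. GCGCATGCG (NRF1) was found in 5 members (6.49%) and 2.20% of all genes. CCGGAAGT (ETS factors such as GABP) was found in 10 members (13%) and 4.80% of all, and AAGATGGCG (YY1) in 7 members (9.09%) and 1.70% of all. The CTCF consensus with at most 2 mismatches was found in 12 members (15.6%) and 15.9% of all genes. The first 3 motifs were thus more frequent in members than in all genes, which also have fewer CpG in these windows. The CTCF consensus was equally frequent within 1 percentage point. In cytosolic ribosomal protein genes the first 3 motifs were found in 1.39%, 18.1% and 5.56%. In oxidative phosphorylation subunit genes it was 6.33%, 7.59% and 3.80%. Apart from NRF1 in the cytosolic genes, these shares also stood above those of all genes. A match is a run of letters and does not show binding.

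Of the 47 summits within 5000 bp of a member, 30 had a CTCF motif with its centre within 50 bp (63.8%, 49.5 to 76.0), and 64.0% of the 9074 summits near other coding starts had one. Within 1000 bp it was 12 of 22 (54.5%, 34.7 to 73.1) against 49.6%. Windows displaced by 2000 bp to each side of the 47 summits held a motif in 3 of 94 cases (3.19%). A motif-bearing summit lay within 1000 bp of 11 members (14.3%; 10.8% of all genes) and within 5000 bp of 26 (33.8%; 26.9% of all genes). The motif pointed along the gene's strand at 21 of 30 summits (70.0%, 52.1 to 83.3), and at 53.9% of those around all coding starts, a share inside that interval. The strand was that of the member for the former and of the nearest coding start for the latter.

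Within 1000 bp of a start the motif-bearing peaks were stronger, with a median of 468.75 over 12 peaks (83.7 to 643.9), than those without a motif, with a median of 101.6 over 10 peaks (45.5 to 566.4). The groups overlapped: the Mrps12 and Mrps23 peaks lacked a motif and stood at 566.4 and 295.5, and the weak Mrpl20 peak had one. The beginnings of motif sites were also counted at promoters and farther out. Among the 12 promoter sites 1, at Mrpl20, began with CCAGAAGAGGG, and among the 18 sites 1000 to 5000 bp away it was 8 (44.4%, 24.6 to 66.3). The stretch was picked as the most common beginning of these same member sites. The interval therefore does not measure an excess over other summits, and the difference between near and far sites was not tested.

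The same stretch began 4677 of the 31822 motif-bearing summits on autosomes in the list (14.7%) and was the most frequent beginning there. By distance from the nearest coding start its share was 5.68% within 1000 bp, 17.9% at 1000 to 5000 bp and 15% farther away. All 9 member sites with it lay in sequence that the reference marks as repeat or low complexity, as did 99.5% of those in the list, and 2 of the other 21 member sites did. B2 elements, short interspersed repeats of rodents, are known to carry a CTCF site, but the class of repeat was not given by the files used here, and it was not tested which elements these are. All 9 lay near large-subunit genes, which hold 23 of the 30 sites. Their strengths ran from 83.7 at Mrpl20 to 535.7 at Mrpl12 with a median of 142.1, and the 21 other sites had a median of 355.0. Over the whole list the medians were 128.3 with this beginning and 292.0 for all motif-bearing summits.

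The lists from the single pools differed in number of peaks, and the members' counts moved with them. Within 1000 bp the pool E list gave 30 members (39.0%; 26.5% of all genes), the pool F list 13 (16.9%; 16.6% of all genes) and the combined list 29 (37.7%; 25.7% of all genes). Within 5000 bp the counts were 47 (61.0%; 44.2% of all genes), 27 (35.1%; 32.2% of all genes) and 45 (58.4%; 43.6% of all genes). In the pool F list the members stood within 3 percentage points of all genes at both windows. The members' intervals lay above the share of all genes in the pool E and combined lists, in which CpG-rich starts were not compared apart.

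**Figure D3:**
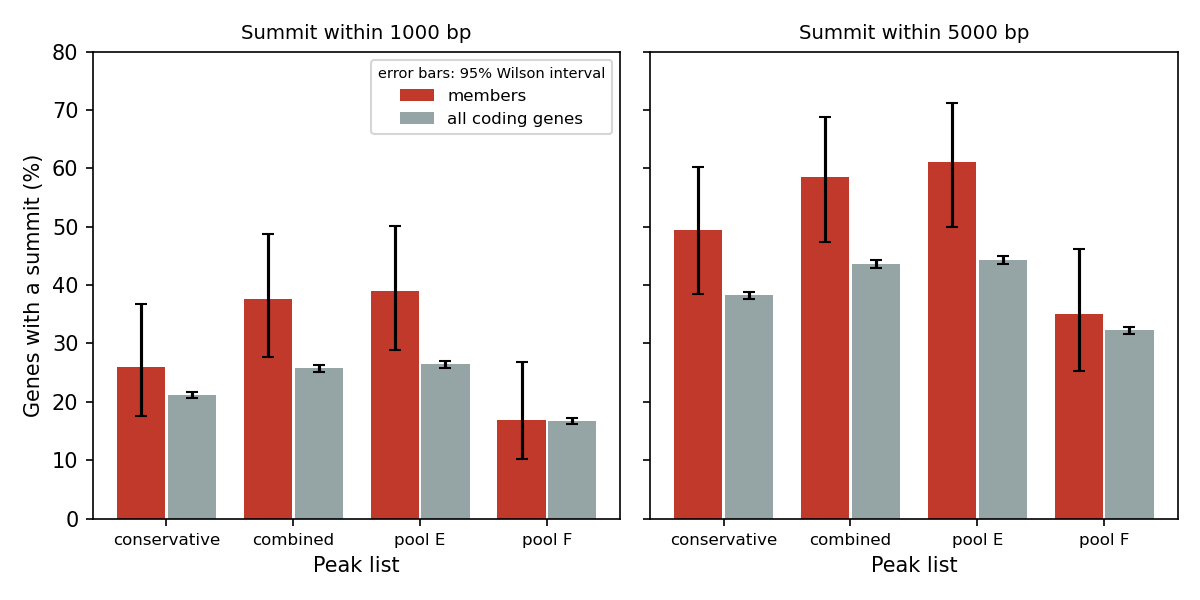
Genes (% of each group) whose start has a summit at 1000 bp or less (left) and 5000 bp or less (right) in each of the 4 thresholded lists; red bars are the 77 members, grey bars all 20807 autosomal coding genes, and error bars are 95% Wilson intervals. In the pool F list the members stand at 16.9% and 35.1% beside 16.6% and 32.2% of all genes.

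By name, 12 members had a summit within 1000 bp in all 4 lists: Mrpl11, Mrpl20, Mrpl33, Mrpl38, Mrpl39, Mrps2, Mrps12, Mrps14, Mrps18b, Mrps23, Mrps26 and Mrps28. A further 22 had one in 1 to 3 lists, and 43 had none in any list. The same overlap between lists was not counted for all genes. Of all 20807 genes, 4399 had a summit within 1000 bp in the conservative list and 3461 in the pool F list. These totals do not show how many genes were in one list and not in the other. The count that follows therefore describes the members alone. Of the 20 in the conservative list, 8 had none in the pool F list. These were the weak peaks at Mrpl3, Mrpl48, Mrpl51, Mrpl57 and Mrps6 and the 3 strongest of the family, at Mrps16, Mrpl17 and Mrpl34. The Mrps16 peak was in neither pool list nor in the combined list, and the Mrpl17 peak was missing from the combined list as well. Mrpl44, whose protein has a ribonuclease III fold and whose human defects cause cardiomyopathy, was the reverse case. It had a summit 99 to 127 bp downstream in the pool E, pool F and combined lists and none in the conservative list.

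The ranked lists behind the thresholded ones, which keep peaks at any IDR, show where these peaks stood. Mrps16 had an IDR of 0.023 in the ranked list behind the conservative one, 0.051 in that of pool E and 0.11 in that of pool F, with input strengths of 362.0 and 286.0. Mrpl17 had 0.0056, 0.0021 and 0.13, and Mrpl34 had 0.0038, 0.030 and 0.058. The weak peaks at Mrpl3, Mrpl48, Mrpl51 and Mrps6 had an IDR of 0.60 in pool F, and that at Mrpl57 had 0.074. Mrpl44 had an IDR of 0.13 behind the conservative list, where its strengths in the 2 inputs were 40.1 and 44.0. In pool F the 8 peaks past the threshold were thus the 3 strongest and the 5 weakest of the 20 genes.

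Mrps33 fell just past it. Its ranked peak had a summit 47 bp upstream with a strength of 629.5, which is higher than that of every conservative-list peak near a member other than Mrps16. Its IDR was 0.055 behind the conservative list, 0.60 in pool E and 0.063 in pool F, with input strengths of 353.0 and 283.4. In the conservative list its nearest summit was therefore 28074 bp away. The peak had a site with 2 mismatches, shown because no thresholded list holds it.
Mrps33, chr6:39811013-39811042, minus strand: gagcgcggCCGCTAGGTGTCGCccgaggtc

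The same held for strong peaks in the whole ranked list. Of 1045 ranked peaks with a strength of 600 or more, 671 passed the threshold (64.2%), and of 172 at 650 or more, 30 did (17.4%). Between 400 and 600 it was 99.4%. Absence from the conservative list did not by itself mean that a peak was weak.

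In the ranked list behind the conservative one, a candidate at any IDR lay within 1000 bp of 66 members (85.7%; 48.2% of all genes). Starts with 10 or more CpG made up 90.9% of members' starts and 54.5% of all, and they were not compared apart here. Of the 57 members without a conservative summit within 1000 bp, 46 had a candidate there. Mrps11 and Mrpl46 had the same candidate (26.1), which is counted for both. Strengths of these 46 ran from 11.7 to 629.5 with a median of 27.55. The second highest was 80.8, at Mrpl44, and 44 were under 60. A motif lay at 5 of them. Of the 11 members with no candidate in that list, Mrpl19, Mrpl35 and Mrpl36 had none in the ranked lists of the single pools either. Mrpl9, Mrpl42, Mrpl49, Mrpl52, Mrps5, Mrps9 and Mrps31 had one in pool E past the threshold. Mrps35 had one in pool E that passed it (strength 38.2, IDR 0.0024, with a motif), 21 bp from its start.

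**Figure D4:**
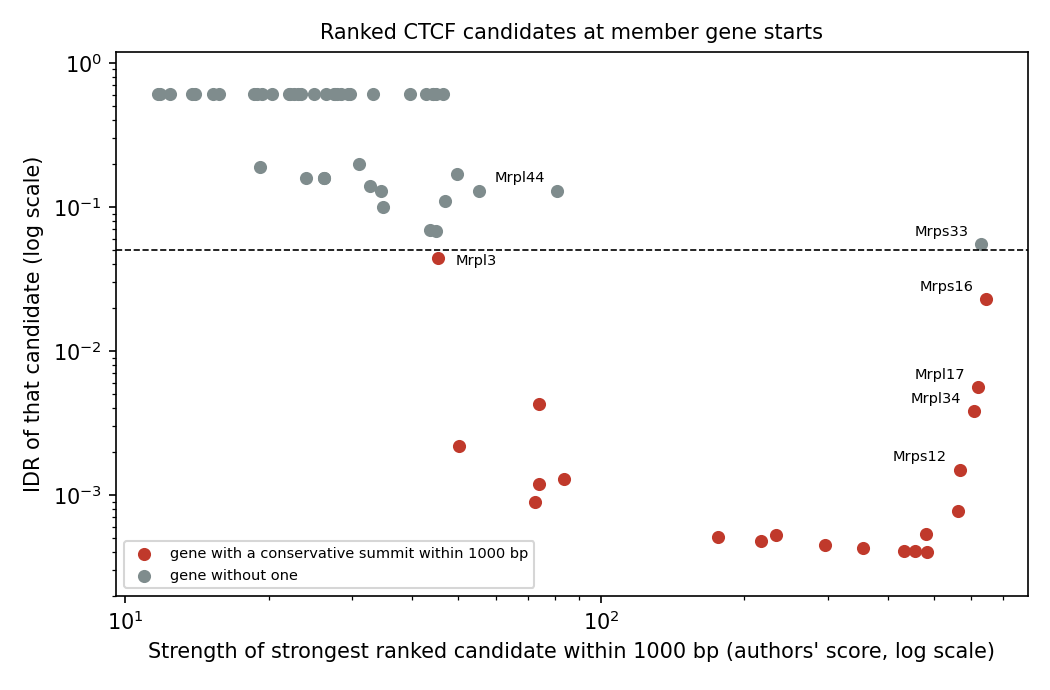
IDR (vertical axis, log scale) against strength (horizontal axis, authors' score, log scale) of the strongest ranked candidate within 1000 bp of each of 66 member starts; red marks genes with a conservative summit there, grey genes without, and the dashed line is the threshold of 0.05. Mrps33, at a strength of 629.5 and an IDR of 0.055, lies just above the line at the right, apart from the other failing candidates, which have strengths of 80.8 or less.

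Each conservative peak also has a strength in each of 2 inputs. First-input values recur in the ranked list of pool E at 76.2% of peaks and second-input values in that of pool F at 60.5%, with no crossed match. The first input was stronger at all 47 member peaks. The log2 ratio of first to second had a median of 0.93 (0.33 to 1.67, SD 0.36 over peaks), and that of all 42163 peaks was 1.03 (SD 0.39). Mrps16 stood at 362.0 and 286.0 (0.34) and Mrps12 at 318.7 and 250.4 (0.35). Mrpl11 stood at 309.7 and 173.0 (0.84), Mrpl33 upstream at 176.5 and 58.3 (1.60) and Mrpl40, the highest ratio, at 96.5 and 30.4 (1.67).

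The ratio fell with strength among members as in the whole list. Its median was 0.34 over 3 member peaks at 600 or more (0.41 over all such peaks), 0.66 over 12 at 400 to 600 (0.64), 1.27 over 9 at 200 to 400 (1.05) and 1.21 over 23 below 200 (1.30). Spearman's rho between strength and ratio was −0.63 over the 47 member peaks and −0.74 over 42163 peaks. Strength is computed from the same inputs, so this is a description. A partner at a reciprocal overlap of 50% was found for 39 of the 47 peaks in pool E and for 30 in pool F, and at 1 bp for 45 and 35. Partners were not counted for all 42163 peaks, and the pool F list is the smaller, so these counts describe the member peaks alone.

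**Figure D5:**
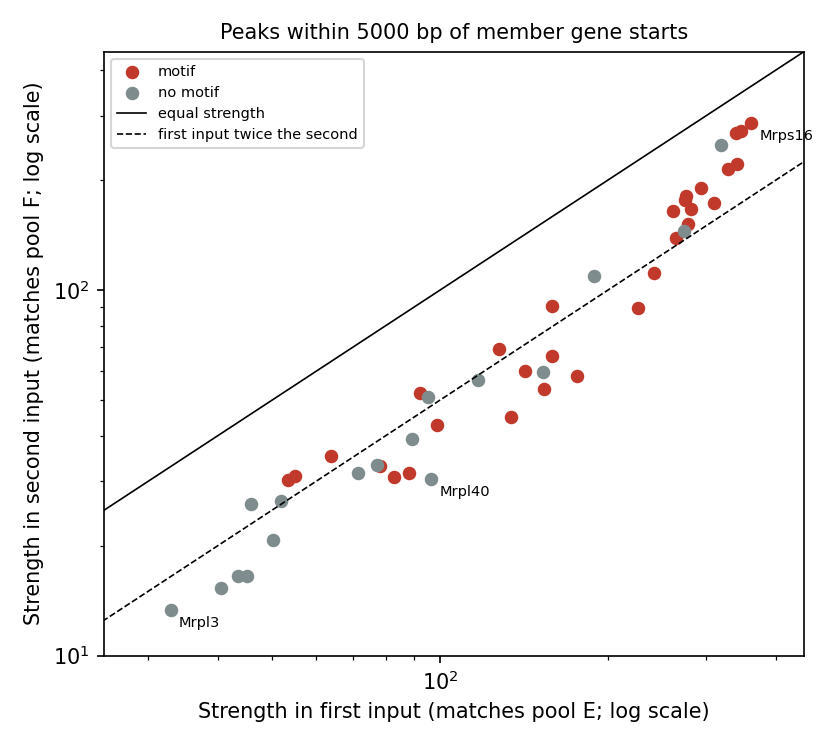
Strength of each of the 47 member peaks within 5000 bp in the second input (vertical axis, log scale) against the first (horizontal axis, log scale), both the authors' scores; red marks a motif, the solid line equal strength and the dashed line a log2 ratio of 1. All points lie below the solid line, and the strongest, at Mrps16 (362.0 and 286.0), lie nearest to it.

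Other genes of mitochondrial translation were counted by role, to be read beside 21.1% of all genes within 1000 bp and 38.2% within 5000 bp. Of 5 mitoribosomal proteins under other symbols, 3 had a summit within 1000 bp (60%, 23.1 to 88.2) and the same 3 within 5000 bp, the strongest at Aurkaip1 (473.8). Of 11 translation factor genes, 3 (27.3%, 9.75 to 56.6) and 6 (54.5%, 28 to 78.7) had one, the strongest at Tsfm, the elongation factor Ts gene (592.0, 58 bp upstream, a site with no mismatch). Of 20 aminoacyl-tRNA synthetase and amidotransferase genes, 11 (55%, 34.2 to 74.2) and 12 (60%, 38.7 to 78.1) had one, the strongest at Sars2 by the peak it shares with Mrps12. Of 26 assembly and rRNA modification genes, 8 (30.8%, 16.5 to 49.99) and 12 (46.2%, 28.8 to 64.5) had one, the strongest at Mrm1, an rRNA methyltransferase gene (553.9). The synthetase list's interval lay above the share of all genes at both windows, that of the mitoribosomal proteins under other symbols did so at 1000 bp, and the other intervals held it.

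Among the 2 most similar families, the 72 cytosolic ribosomal protein genes had a summit within 1000 bp at 26 (36.1%) and within 5000 bp at 45 (62.5%). The 79 oxidative phosphorylation subunit genes had one at 16 (20.3%) and 38 (48.1%). Median distances to the nearest summit were 2799.5 bp in the first family and 6390 bp in the second. The mitochondrial ribosomal protein genes, at 26.0% and 49.4%, stood between them at both windows in the conservative list. In the pool F list they were below both: 16.9% and 35.1%, against 33.3% and 58.3% of the cytosolic genes and 21.5% and 48.1% of the oxidative phosphorylation genes. The differences between families were not tested, since a test over genes would take genes as replicates.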

How the data were processed

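CTCF ChIP-seq peak lists of 4 libraries in 2 groups (pool E and pool F, each 2 technical replicates merged by the authors) were used as deposited. Per the notes deposited with the samples, 1 control alignment served both pools. The aligner and peak caller are not given in the sources used here. The peak strength and the other list columns are scores the authors deposited, on a scale not stated. IDR values were deposited as −log10 in the ranked lists, and 4 lists thresholded at 0.05 were made from 4 ranked ones. Read depth was unknown.

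Gene starts are the 5′ ends of GENCODE M21 gene records, and coordinates are mm10. Distances, overlaps, motif matches (CTCF consensus of 14 bases, at most 2 mismatches, centre within 50 bp of the summit, both strands) and 95% Wilson intervals were computed with Python 3.11.15, pandas 2.3.3, numpy 2.4.6 and pysam 0.24.0, checked on simulated peaks. Promoter sequences are from RefSeq (GRCm38.p6; 68 of 77 genes matched). Repeat marks are the lower case letters of that genome. Beginnings of sites were compared after the sites had been seen.

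No test was made, because technical replicates are merged and members are not replicates. The alternatives were other lists, IDR thresholds, windows, gene starts and motif settings. The members and lists were chosen with earlier results of these data known. Named are all members with a nearest summit within 5000 bp, the 5 farthest, the pairs beside each window's limit and the strongest member of each pathway list. Others, such as Mrps33 and Mrpl44, were named after their values were seen. For 1 further symbol nothing is reported here.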

Additional observations from a re-analysis of the deposited data

How the results depend on the processing

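The count of 20 members within 1000 bp was 13 in the pool F list, 11 among peaks at or above the median strength, 66 with ranked peaks at any IDR (added after seeing the data) and 11 with motif-bearing summits. In the 7 other settings that kept the window of 1000 bp it ran from 16 to 30. The IDR of 0.1, the summits nearest to a member and the subunit settings were also chosen after seeing the data. For large-subunit symbols the 11 became 17 with pool E and 6 with pool F alone, and for small-subunit symbols the 9 became 14 in the combined list. The count of 38 within 5000 bp was 18 among peaks at or above the median strength, 72 at any IDR and 62 with a window of 20000 bp. These counts show how far the members' number moved and are not set beside all genes. The median distance was 2755 bp in the pool E list and 10194 bp among peaks at or above the median strength. The motif share was 84.21% among those peaks, 29.79% with 1 mismatch and 87.23% with 3, where displaced windows held a motif in 25.5% of cases. The pool F list had partners for 5 peaks at a reciprocal overlap of 80%. Single members stayed in their distance class in 389 of 462 combinations of member and setting. No paired analysis was possible because the lists merge technical replicates and no value comes from a test; for the same reason no replicate could be left out. Depth was unknown, so an absent peak does not show absent binding.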
